A study of Mus musculus with 2 samples.

Results

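Transporters that carry amino acids and amino acid transmitters across membranes were followed through the cell types of the aged and young mouse anterior hypothalamus. The set holds 55 of the 32289 features counted, taken by gene symbol alone: the Slc1a, Slc6a, Slc7a and Slc38a families as the feature list numbers them, the vesicular glutamate transporters Slc17a6, Slc17a7 and Slc17a8, and the vesicular inhibitory amino acid transporter Slc32a1. The rule uses no measured value, but it was chosen with earlier results of these data known. Symbols with a letter suffix after the number, such as Slc6a20a, were outside the patterns. Nuclei came from 5 aged male mice (22 months) pooled into 1 library and from 5 young wild-type male mice (3 months) pooled into another. The dissected block reached from the preoptic area into the anterior hypothalamus, and nuclei were sorted on DAPI after a gradient and myelin removal, before 10x Genomics droplet capture with an aim of 10000 nuclei per library. As each age has 1 library, nothing is replicated and no test between the ages was made: age, pool and library cannot be told apart, and every 95% interval below covers counting error only.

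Neurons and glia share out the work of ending amino acid transmission. Sodium-coupled SLC1 carriers clear glutamate and SLC6 carriers clear GABA, glycine, monoamines, taurine and creatine, while the vesicular carriers load transmitter into synaptic vesicles and thereby mark which transmitter a neuron can release. SLC38 carriers move glutamine and other small neutral amino acids between glia and neurons, and SLC7 proteins, many of which need a partner chain, exchange larger, cationic or sulfur amino acids.

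After removal of barcodes with under 500 detected genes, over 5% mitochondrial UMIs (unique molecular identifiers, 1 per captured RNA molecule) or a doublet call, 8229 aged and 9948 young nuclei remained, with a median of 5490 and 5356.5 UMIs. Both libraries were clustered together without the 55 genes, and classes were named from markers that exclude them, so a level by class is not what defined the class. Names stand for nuclei that resemble a type: neurons (4999 aged and 6427 young), oligodendrocytes (1881 and 2133), microglia (411 and 477), oligodendrocyte precursors (183 and 254), astrocytes (154 and 387), fibroblasts (16 and 95), mural cells (29 and 38), endothelial cells (21 and 24) and border macrophages (15 and 24). A shallow cluster of 520 aged and 89 young nuclei, led by Oxt and ribosomal genes, with medians of 683.5 and 710 UMIs, stayed unnamed and enters no class. Its neuron markers passed the limit used to name neurons, but its low depth kept it unnamed. The fibroblasts fell into a Dcn cluster (16 and 63 nuclei) and a Bnc2 cluster (0 and 32). Their leading genes, ranked over all genes with the transporters included, were Slc6a13, Slc6a20a and Dcn in the former and Bnc2 in the latter. The libraries shared 25 barcodes. Neuron sub-clusters are called by 2 or 3 of their leading genes. Beside hypothalamic groups led by Trh and Sim1, Vip and Rorb, or Gal, Tac2 and Esr1, they included striatal-type groups led by Drd1 (550 aged and 613 young nuclei) and by Adora2a and Drd2 (444 and 543), and groups led by Tcf7l2, a thalamic marker. Levels are CPM, a gene's UMIs per 1000000 UMIs of a class in a library.

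Of the 55 genes, 41 had 50 or more UMIs over the nuclei of both libraries. The other 14 were near the limit of detection: Slc1a7 had 30 UMIs, Slc6a12 had 25, the serotonin transporter gene Slc6a4 had 21, Slc38a8 had 19, Slc38a5 had 17, the noradrenaline transporter gene Slc6a2 had 12, Slc6a19 had 11 and the neuronal glycine transporter gene Slc6a5 had 10. Slc6a14 and Slc7a9 had 7 each, Slc7a12 had 3, Slc7a13 had 2, and Slc6a18 and Slc6a21 had 1 each. Slc6a4, Slc6a2 and Slc6a5 had too few UMIs for a level by neuron type, and the counts do not show that any of the 14 is absent from the tissue. Many genes stood out in a few classes, as the heat map of levels shows. In the GENCODE M21 annotation a gene on the other strand overlaps 14 of the 55, among them Slc32a1 (Gm14205), Slc1a1 (4430402I18Rik), Slc1a2 (Gm13872), Slc7a4 (P2rx6), Slc7a7 (Oxa1l), Slc7a11 (Gm37854), Slc7a14 (Gm15496), Slc7a15 (5033421B08Rik) and Slc38a9 (Gm47827). No source used here says if counting used strand, so reads of such pairs may not have been told apart.

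**Figure D1:**
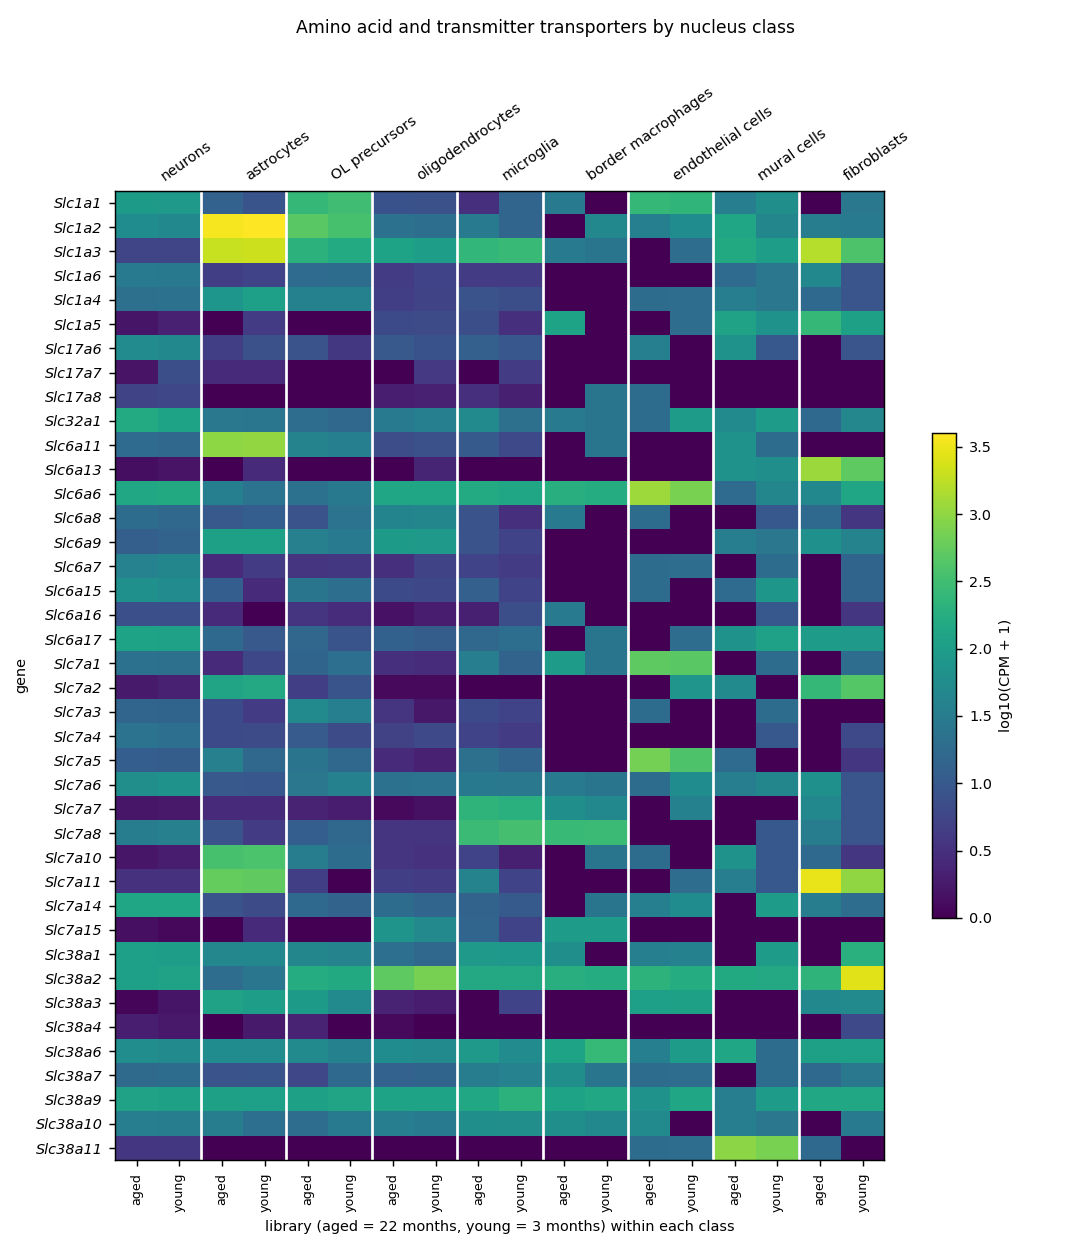
Levels of transporter genes with 50 or more UMIs (rows, grouped by role) in 9 nucleus classes, aged library left of young in each pair of columns. Colour is log10(CPM + 1): Slc1a2, Slc1a3 and Slc6a11 are brightest in astrocytes, Slc6a13 and Slc7a11 in fibroblasts, and Slc38a11 in mural cells, in both libraries, while Slc38a2 in fibroblasts is far brighter in the young one.

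The carriers that clear glutamate were most abundant in astrocytes. Slc1a2, which encodes GLT-1, stood at 3527 (3372 to 3687) CPM in aged and 3997 (3884 to 4113) CPM in young astrocytes, and 153 of 154 aged and 384 of 387 young astrocytes held at least 1 UMI of it. Slc1a3, which encodes GLAST, stood at 1972 (1857 to 2093) CPM in aged and 2102 (2019.8 to 2186) CPM in young astrocytes. These levels were far above those of neurons, at 55.1 and 46.7 CPM for Slc1a2 and 4.68 and 4.59 CPM for Slc1a3 in aged and young neurons. Slc1a3 was also found at 1601 (1304 to 1945) CPM in aged and 903 (762 to 1061) CPM in young fibroblasts of the Dcn cluster. The aged interval, from 16 nuclei, overlapped that of aged astrocytes. In other classes Slc1a3 stood at 241 and 268 CPM in aged and young microglia and 122 and 98.7 CPM in oligodendrocytes. In droplets without nuclei, the measure of free RNA, Slc1a2 stood at 94.5 and 129 CPM in the aged and young libraries.

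Slc1a1, which encodes the neuronal carrier EAAC1, had another distribution: 91.5 and 83.8 CPM in aged and young neurons, 249.6 and 318 CPM in oligodendrocyte precursors, 246 and 224 CPM in endothelial cells and 7.10 and 6.84 CPM in oligodendrocytes. Within the precursors its level was highest in a small cluster of 2 aged and 21 young committed precursors, which separated at a finer clustering resolution. There it stood at 908 CPM (756 to 1081) in the young library, in 20 of 21 nuclei, against 230.2 CPM (200.3 to 263) in the other young precursors. Most Slc1a1 UMIs of precursors still lay in the others, with 198 aged and 213 young, against 7 and 125 in the committed ones. Slc1a2 and Slc1a3 went the other way across the same step, with 2 and 3 UMIs in young committed precursors (14.5 CPM of Slc1a2 and 21.8 CPM of Slc1a3), against 402 CPM of Slc1a2 and 180.5 CPM of Slc1a3 in the other young precursors. The aged library held too few committed precursors for a level (7 Slc1a1 UMIs). Slc1a6, known from Purkinje cells, stood at 29.2 and 27.3 CPM in aged and young neurons, its highest level in any class. The neutral amino acid carrier gene Slc1a4 stood at 75.9 and 108 CPM in aged and young astrocytes and 20.2 and 21.8 CPM in neurons. Slc1a5, which encodes the neutral amino acid exchanger ASCT2, stood at 0.580 and 1.11 CPM in aged and young neurons, against 254 CPM in aged and 253 CPM in young fibroblasts of the Dcn cluster.

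Genes of GABA uptake differed in the cells that held them. Slc6a11, which encodes GAT3, was astrocytic at 976 and 1043 CPM in aged and young astrocytes, against 17.4 and 15.7 CPM in neurons. Slc6a13, which encodes GAT2, stood at 1141 CPM in aged and 1181 CPM in young fibroblasts of the Dcn cluster, against 0.365 and 0.556 CPM in neurons. Among neurons, Slc6a11 had its highest level in the Vip Rorb sub-cluster, whose leading genes mark suprachiasmatic neurons, at 86.9 (63.4 to 116) CPM in the aged and 73.1 (53.9 to 97) CPM in the young library. Its lowest was in the Ccdc88c Prkch sub-cluster, at 2.47 and 1.84 CPM.

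Taurine, creatine, glycine and proline carriers followed other lines. The taurine transporter gene Slc6a6 reached 1177 and 747 CPM in aged and young endothelial cells, from 21 and 24 nuclei, and stood at 144 and 153 CPM in neurons, 157 and 132 CPM in microglia, 131 and 133 CPM in oligodendrocytes and 34.3 and 22.8 CPM in astrocytes. Within neurons it was highest in the cholinergic Chat Slc5a7 sub-cluster (264 and 286 CPM) and in the striatal-type Adora2a Drd2 sub-cluster (239 and 244 CPM). The creatine transporter gene Slc6a8 stood at 41.1 and 44.2 CPM in aged and young oligodendrocytes and 17.6 and 15.4 CPM in neurons. Slc6a9, which encodes the glial glycine transporter GlyT1, was at 112 and 109 CPM in aged and young astrocytes and 90.3 and 86 CPM in oligodendrocytes, against 11.3 and 12.9 CPM in neurons. Its highest level among neuron sub-clusters was 26.4 and 28.2 CPM, in the Kcnmb2 Pvalb sub-cluster. The proline carrier gene Slc6a7 had its highest class level in neurons, at 39 and 43.9 CPM in the aged and young libraries, as had the neutral amino acid carrier genes Slc6a15 (63.4 and 53.7 CPM) and Slc6a17 (121 and 116 CPM). Slc6a17, whose product sits on synaptic vesicles, was highest in the Vip Rorb sub-cluster (247 and 241 CPM) and low in the Chat Slc5a7 sub-cluster (19.4 and 31.7 CPM). Slc6a15 was highest in that same Chat Slc5a7 sub-cluster (134 and 139.7 CPM). Slc6a16, a family member of unknown substrate, stood at 6.49 and 6.63 CPM in aged and young neurons.

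The SLC7 genes marked the barrier and immune cells as well as astrocytes. Slc7a5, which encodes the large neutral amino acid exchanger LAT1 of the blood-brain barrier, was at 703 (502 to 957) CPM in aged and 392 (243 to 599) CPM in young endothelial cells, and at 10.7 and 10.5 CPM in neurons. Slc7a1, a carrier of cationic amino acids, was at 509.7 (341 to 732) CPM in aged and 485 (317 to 711) CPM in young endothelial cells, and at 21.6 and 20.3 CPM in neurons. Slc7a7 was found mainly in microglia among the 5 large classes, at 218 and 194 CPM in aged and young microglia, against 0.666 and 0.789 CPM in neurons and 0.245 and 0.456 CPM in oligodendrocytes. Slc7a8, which encodes LAT2, stood at 287 and 341 CPM in microglia and 278 and 285 CPM in border macrophages, where only 9 aged and 12 young UMIs were counted.

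Slc7a10, which encodes the serine and glycine exchanger Asc-1, was astrocytic at 359.7 and 387 CPM in aged and young astrocytes, against 0.666 and 0.968 CPM in neurons. Slc7a11, which encodes xCT, the exchanger that brings in cystine for glutamate, stood at 557 and 524 CPM in aged and young astrocytes and at 2996 and 2306 CPM in aged and young fibroblasts of the Dcn cluster, against 2.28 and 2.31 CPM in neurons. Slc7a2, a carrier of cationic amino acids, was found in the same 2 classes, at 125 and 147 CPM in aged and young astrocytes and 254 and 259.6 CPM in the Dcn fibroblasts. Slc7a15 was highest in oligodendrocytes among the 5 large classes, at 72.4 and 48.1 CPM in aged and young oligodendrocytes and 0.408 and 0.179 CPM in neurons. Slc7a14, of the cationic amino acid carrier branch, stood at 133 and 129 CPM in aged and young neurons, and a single sub-cluster stood far above the others: 922 (845 to 1004) CPM in aged and 891 (827 to 959.7) CPM in young cholinergic Chat Slc5a7 neurons, next to 176 CPM in aged Npy Sst and 162 CPM in young Pde1c Calcr neurons, the second highest of each library. Of the 31 aged and 50 young Chat Slc5a7 nuclei, 30 and 47 held Slc7a14 UMIs. Slc7a4 (22.5 and 19.9 CPM in aged and young neurons) and Slc7a6 (60 and 70.4 CPM) were highest in neurons, while the cationic amino acid carrier gene Slc7a3 was higher in oligodendrocyte precursors (49.9 and 34.8 CPM) than in neurons (13.9 and 13.3 CPM).

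The amino acid response is known to act on amino acid carrier genes through a composite element, so its core letters were looked for beside the starts of the genes. The letters searched were TGATGNAA, the shared core of C/EBP-ATF response elements, on both strands of RefSeq's promoter windows of 300 bases (250 before to 50 after a start, build GRCm38.p6). Of the 55 genes, 39 matched a RefSeq entry, with 61 windows, and 5 windows (8.20%) of 4 genes held the letters, against 1304 of all 32851 windows (3.97%). By gene, 4 of the 39 held them, against 1219 of 27025 genes with windows (4.51%). The windows of Slc7a11, with a pair of matches, and of Slc1a4 are shown, as each has a single window and levels described here. Slc7a7, with 5 windows, held matches 141 bases and 1 base before the start of one and 243 bases before that of another. These windows overlap, and the matches at 1 base and at 243 bases are the same site, counted in both windows. Slc6a21, with 1 UMI in all nuclei, held one 28 bases before its start. Both windows below are read from the minus strand, 5′ to 3′, Slc7a11 at chr3:50443564-50443863 and Slc1a4 at chr11:20332664-20332963, and capitals mark the matches, which lie 66 and 47 bases before the Slc7a11 start and 4 bases before the Slc1a4 start. A match is a description of letters and not of binding.
Slc7a11: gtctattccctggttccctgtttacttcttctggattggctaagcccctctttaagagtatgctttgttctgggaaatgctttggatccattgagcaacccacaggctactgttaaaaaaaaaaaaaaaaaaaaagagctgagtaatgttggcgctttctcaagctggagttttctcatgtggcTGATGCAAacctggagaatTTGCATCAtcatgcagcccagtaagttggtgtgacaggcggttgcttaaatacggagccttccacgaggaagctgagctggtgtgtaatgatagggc
Slc1a4: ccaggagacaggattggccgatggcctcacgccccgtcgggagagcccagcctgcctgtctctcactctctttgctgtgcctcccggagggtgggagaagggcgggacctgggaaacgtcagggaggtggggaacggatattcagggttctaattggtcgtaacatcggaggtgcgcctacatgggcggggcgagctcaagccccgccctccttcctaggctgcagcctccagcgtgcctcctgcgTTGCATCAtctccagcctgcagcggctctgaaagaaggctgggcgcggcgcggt

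Slc38a2, which encodes the widely expressed neutral amino acid carrier SNAT2, had its highest levels in fibroblasts and oligodendrocytes and its lowest among large classes in astrocytes, at 18.1 and 25.3 CPM in aged and young astrocytes. In fibroblasts its level differed between the 2 clusters. The Dcn cluster, with 16 aged and 63 young nuclei, held 222 CPM in the aged (14 UMIs) and 532 CPM in the young library (86 UMIs). The cluster led by Bnc2, with 0 aged and 32 young nuclei, held 4388 CPM (4112 to 4678), in 31 of 32 nuclei. Other carriers split between these clusters too. Slc6a13 stood at 1141 CPM in aged and 1181 CPM in young nuclei of the first, with 0 UMIs in the Bnc2 cluster, and Slc7a11 at 2996 and 2306 CPM in the first, again with 0 UMIs in the Bnc2 cluster. Slc7a2 was present in both, at 254 CPM in aged and 259.6 CPM in young nuclei of the first and 580.1 CPM in the Bnc2 cluster. With no aged nucleus in the Bnc2 cluster, summed fibroblast levels of the ages are not comparable, and with 1 library per age that cluster may belong to the young library.

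Other SLC38 genes marked blood vessels and glia. Slc38a11 was highest in mural cells, at 950.2 (718 to 1234) CPM in aged and 743 (593 to 919) CPM in young mural cells, with UMIs in 24 of 29 aged and 30 of 38 young nuclei, and 2.68 and 2.83 CPM in neurons. Slc38a3, which encodes the glutamine carrier SNAT3 of astrocytes, stood at 117 and 105 CPM in aged and young astrocytes, 105 and 112 CPM in endothelial cells and 0.172 and 0.610 CPM in neurons. Slc38a5 had 7 aged and 4 young UMIs in endothelial cells out of 17 in all nuclei. Slc38a1, a glutamine carrier of neurons, stood at 109 and 105 CPM in aged and young neurons and 19.6 and 15 CPM in oligodendrocytes. Slc38a9, which encodes a lysosomal arginine carrier and sensor, was found in each large class, at 117 and 111 CPM in aged and young neurons, 139.9 and 205 in microglia, 121 and 119.9 in oligodendrocytes, 110.3 and 106 in astrocytes and 112 and 124 in precursors. Slc38a6, Slc38a7 and Slc38a10 were likewise found in all 5 large classes, and Slc38a4 had 48 aged and 44 young UMIs in neurons.

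The vesicular carrier genes were high in different neurons. Slc17a6, which encodes VGLUT2, was highest in 5 of 26 sub-clusters: Tcf7l2 Lef1 (358 and 309.8 CPM in the aged and young libraries), Il31ra Tcf7l2 (332 and 255), Ebf2 Ebf3 (252 and 274), Trh Sim1 (244 and 212) and Avp Oxt (168 and 186). Slc32a1, which encodes the vesicular carrier of GABA and glycine, was low in those same 5, between 8.74 CPM (Il31ra Tcf7l2) and 35 CPM (Avp Oxt) in the aged library and between 0 CPM (Avp Oxt) and 19.4 CPM (Ebf2 Ebf3) in the young library. Slc32a1 was high in the Egfr Kit (313 and 208 CPM in aged and young), Npy Sst (269 and 235), Kcnmb2 Pvalb (264 and 304) and Gbx1 Sox6 sub-clusters (264 and 202). Egfr Kit stood first in the aged library, where the intervals of these 4 overlapped, and Kcnmb2 Pvalb first in the young library, where its interval overlapped that of Npy Sst and lay above the other two. Outside neurons, Slc32a1 stood at 52.3 and 20.3 CPM in aged and young microglia and 29.6 and 34.7 CPM in oligodendrocytes, and it made up 226 and 238 CPM of the RNA in droplets without nuclei. An average such droplet would have given 104 of the 121 UMIs counted over aged and 114 of the 152 over young oligodendrocytes, against 275 of 7474 over aged and 344 of 6775 over young neurons.

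Slc17a8, which encodes VGLUT3, exceeded 4 CPM over both libraries in a pair of sub-clusters only. It stood at 116 (89.8 to 148) CPM in aged and 122 (98.7 to 149) CPM in young Chat Slc5a7 neurons, which are cholinergic and low in Slc32a1 (31.7 and 16.5 CPM). In Bnc2 Ebf1 neurons it stood at 36.7 (29.7 to 44.9) CPM in aged and 43.1 (36 to 51.1) CPM in young nuclei, beside 214 and 172 CPM of Slc32a1. Single Bnc2 Ebf1 nuclei held both: 14 of 243 aged and 7 of 337 young nuclei had 2 or more UMIs of Slc17a8 and of Slc32a1, out of 20 aged and 21 young nuclei with 2 or more of Slc17a8. Across all neurons, nuclei with 2 or more UMIs of an Slc17a gene and of Slc32a1 together were rare, at 0.940% and 0.420% of aged and young neurons, where doublets and free RNA were not told apart from joint expression.

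**Figure D2:**
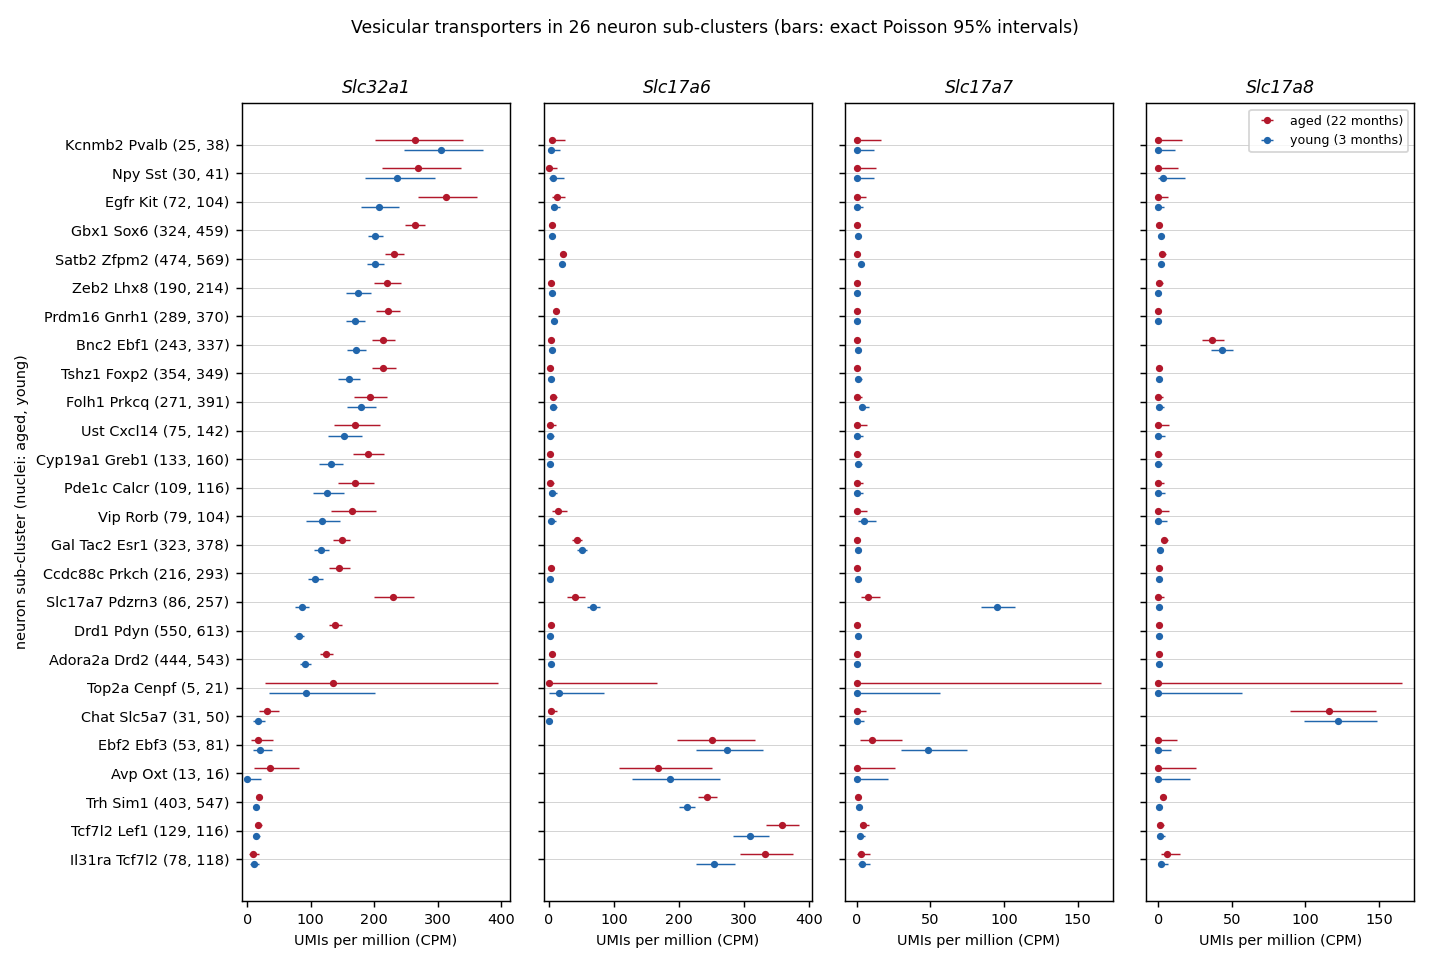
Levels of the vesicular transporter genes (CPM, linear axes that differ between panels) in 26 neuron sub-clusters ordered by Slc32a1, aged library (red) above young (blue), with exact Poisson 95% intervals; nuclei per library in brackets, aged first. Slc32a1 and Slc17a6 are high in different sub-clusters, Slc17a8 stands out in 2 of them, and the Slc17a7 level of the Slc17a7 Pdzrn3 sub-cluster is 7.76 CPM in the aged and 95.4 CPM in the young library.

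Between the ages, few of these genes differed in level in neurons by 1.5-fold. Of the 55 genes, 38 had 50 or more UMIs in neurons, 0 were past 1.5-fold higher in the aged library (3.06% of 18024 genes were) and 2 were past 1.5-fold lower (6.39% of all), Slc17a7 and Slc1a5. The median log2 ratio was 0.04 over the 38 and 0.02 over all genes, and 21 of the 38 ratios were above 1. Slc17a7, which encodes VGLUT1, the vesicular glutamate carrier typical of cortex and hippocampus, had 25 UMIs in 16 aged neurons and 348 UMIs in 127 young neurons, and was 11.6-fold lower (7.74 to 18.2) in the aged library. Most of it came from 1 sub-cluster, with 7 UMIs in 1 of 86 aged nuclei and 276 UMIs in 78 of 257 young nuclei. That sub-cluster is called Slc17a7 Pdzrn3 by its leading genes over both libraries, so Slc17a7 itself is part of the label. Without that sub-cluster, a choice made after seeing the data, the ratio in neurons was 0.290. The Ebf2 Ebf3 sub-cluster came next, with 3 aged and 20 young UMIs. The Slc17a7 Pdzrn3 sub-cluster also held more Slc32a1 in the aged (229.5 CPM) than in the young library (86.1 CPM) and less Slc17a6 (39.9 against 67.8 CPM), and most of its nuclei came from the young library. Nuclei with 2 or more UMIs of Slc32a1 but of no Slc17a gene made up 60.5% of its aged and 24.9% of its young nuclei. Nuclei with 2 or more of an Slc17a gene but not of Slc32a1 made up 4.65% and 36.2%. In droplets without nuclei Slc17a7 stood at 0.958 and 14 CPM in the aged and young libraries. Slc1a5, the ASCT2 gene, had 27 aged and 62 young UMIs in neurons, or 0.580 and 1.11 CPM, and was 1.92-fold lower (1.20 to 3.13). In droplets without nuclei it stood at 0.616 and 1.26 CPM, and after subtraction of free RNA its neuronal ratio was 0.523.

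Slc32a1 had the ratio farthest above 1 by its lower bound. It had 7474 UMIs in aged and 6775 in young neurons, that is 161 (157 to 164) and 121 (119 to 124) CPM, a level 1.32-fold higher (1.28 to 1.37) in the aged library. Neurons with at least 1 Slc32a1 UMI made up 65.1% (63.8% to 66.4%) of aged and 54.3% (53.1% to 55.6%) of young neurons. With every nucleus thinned to 1000 UMIs, which left out 10 aged and 11 young neurons, the shares were 15.5% (14.5% to 16.5%) and 12.5% (11.7% to 13.3%), beside 3.34% (2.57% to 4.26%) of aged and 4.28% (3.45% to 5.24%) of young oligodendrocytes, which should lack it (median depths of 2023 aged and 1891 young UMIs, against 8353 and 7761 in neurons). Of 21 sub-clusters with 50 or more Slc32a1 UMIs, 20 had a ratio above 1, with a median of 1.31. Kcnmb2 Pvalb was the exception at 0.868 (0.618 to 1.21). The Drd1 Pdyn sub-cluster, with 550 aged and 613 young nuclei, was at 139 (129 to 149) CPM in aged and 81.4 (74.1 to 89.1) CPM in young nuclei, 1.70-fold higher (1.52 to 1.91). Subtraction of free RNA gave a ratio of 1.34 in all neurons, and equal weights for the sub-clusters gave 1.32. The enzymes that make GABA had ratios nearer 1: Gad1 had 6106 aged and 7000 young UMIs, a ratio of 1.04 (1.01 to 1.08), and Gad2 had 15030 aged and 15320 young UMIs, a ratio of 1.18 (1.15 to 1.20).

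The other genes named here with higher neuronal levels in the aged library differed by less than Slc32a1. The neutral amino acid carrier gene Slc6a15 had 63.4 and 53.7 CPM in aged and young neurons, 1.18-fold higher (1.12 to 1.24), and Slc38a6 had 57.4 and 51.9 CPM, 1.11-fold higher (1.05 to 1.17). Slc7a4 stood at 22.5 and 19.9 CPM (1.13-fold higher, 1.04 to 1.23), Slc6a8 at 17.6 and 15.4 CPM (1.14-fold higher, 1.04 to 1.26) and Slc1a1 at 91.5 and 83.8 CPM (1.09-fold higher, 1.05 to 1.14). Slc1a2 at 1.18 (1.12 to 1.25) and Slc17a6 at 1.16 (1.10 to 1.23) also had ratios above 1 over all neurons, but these rested on the Tcf7l2 Lef1 sub-cluster of 129 aged and 116 young nuclei, which held 835 of the 2567 aged and 340 of the 2604 young neuronal UMIs of Slc1a2. Without it, a choice made after seeing the data, Slc1a2 stood at 39 CPM in the aged and 41.8 CPM in the young library, a ratio of 0.934 (0.877 to 0.995), and Slc17a6 had a ratio of 1.01 (0.949 to 1.08). The ratio of Slc7a4 was 1.08 (0.989 to 1.19) without the Drd1 Pdyn sub-cluster. Each of the 26 sub-clusters was left out in turn for the ratios of these 7 genes, Slc32a1 and the 8 genes with lower levels, and no other omission turned one of them round or brought 1 into its interval. Intervals above 1 were also found for Slc6a11 (1.11, 1.01 to 1.22), Slc38a10 (1.08, 1.01 to 1.16), Slc38a9 (1.06, 1.02 to 1.10) and Slc6a17 (1.05, 1.01 to 1.09). In aged and young neurons, 8 astrocyte markers summed to 23.7 and 19.5 CPM and 7 oligodendrocyte markers to 169 and 147 CPM, and their part in the ratios of genes that are high in glia, such as Slc1a2 and Slc6a11, was not tested.

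The genes named here as lower in aged neurons, apart from Slc17a7 and Slc1a5, were at most 1.17-fold lower. This does not cover genes with few neuronal UMIs, such as Slc38a3, whose levels are given above. The exchanger gene Slc7a6, which needs the Slc3a2 chain, had 2795 aged and 3925 young UMIs, or 60 and 70.4 CPM, 1.17-fold lower (1.12 to 1.23). Slc38a2 stood at 107 and 119 CPM in aged and young neurons, 1.11-fold lower (1.07 to 1.16), and the proline carrier gene Slc6a7 at 39 and 43.9 CPM, 1.13-fold lower (1.06 to 1.20). The LAT2 gene Slc7a8 was 1.11-fold lower (1.04 to 1.19), the glycine carrier gene Slc6a9 1.15-fold lower (1.03 to 1.29) and the taurine carrier gene Slc6a6 1.06-fold lower (1.03 to 1.10). Among the genes with intervals that included 1 were Slc7a14 at 1.03 (0.998 to 1.07), Slc38a1 at 1.03 (0.995 to 1.07) and the VGLUT3 gene Slc17a8 at 0.944 (0.785 to 1.13).

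**Figure D3:**
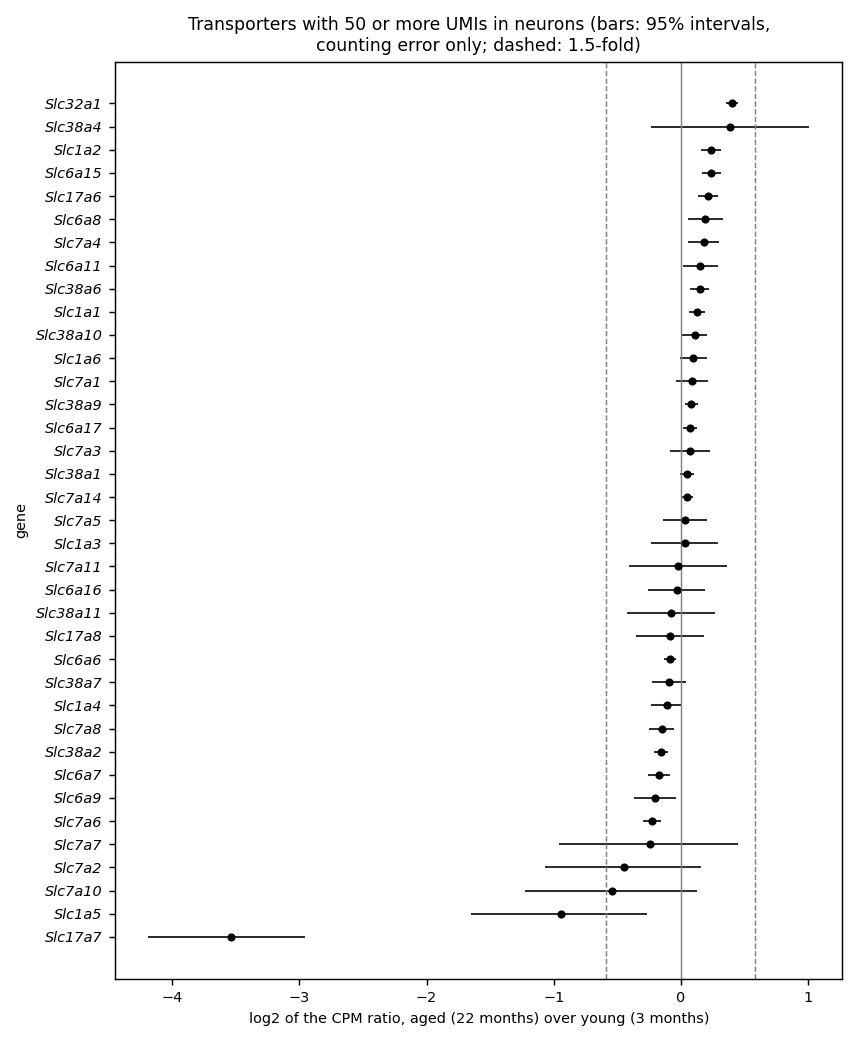
Log2 ratio of CPM in neurons, aged over young, for transporter genes with 50 or more UMIs there, with 95% intervals for counting error only; dashed lines mark 1.5-fold. Slc17a7 and Slc1a5 lie past the lower line and no gene past the upper one, and Slc32a1 is at the top with a narrow interval, at a ratio of 1.32 (1.28 to 1.37).

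Among the 15 neuron sub-clusters with at least 100 nuclei at each age, 12 of 356 ratios of transporter genes were past 1.5-fold, 8 of them higher and 4 lower, against 3.94% and 5.31% of the ratios of all genes there. In Tcf7l2 Lef1 neurons (129 aged and 116 young nuclei), where 5.55% of genes were past 1.5-fold higher and 8.38% past 1.5-fold lower, Slc1a2 had 835 UMIs in 110 aged nuclei and 340 UMIs in 77 young nuclei, 1.79-fold higher (1.57 to 2.03). The nucleus with most Slc1a2 held 46 UMIs in aged and 20 in young Tcf7l2 Lef1 neurons. Slc6a8 was also higher there at 1.55 (0.831 to 3.00), whereas lower ratios were found for Slc1a6 at 0.597 (0.362 to 0.978), Slc6a15 at 0.631 (0.438 to 0.908) and Slc38a10 at 0.632 (0.384 to 1.03). Slc6a15 went the other way in Adora2a Drd2 neurons, with 198 aged and 142 young UMIs, 1.70-fold higher (1.36 to 2.12), where 5.1% of genes were past 1.5-fold higher. Slc38a1 and Slc38a10 were higher in Pde1c Calcr neurons, at 1.74 (1.16 to 2.64) and 1.55 (0.911 to 2.70), beside 5.14% of all genes. Slc6a8 was higher in Tshz1 Foxp2 neurons at 1.62 (1.00 to 2.66), beside 4.26% of genes, and Slc7a5 in Bnc2 Ebf1 neurons at 1.55 (0.868 to 2.79), beside 3.3%. Slc6a7 was lower in Cyp19a1 Greb1 neurons, with 49 aged and 98 young UMIs, 1.71-fold lower (1.20 to 2.46), beside 4.82% of genes. The last of the 12 is Slc32a1 in Drd1 Pdyn neurons, described above, beside 4.06% of genes there. Intervals of Slc6a8 and Slc38a10 in Tcf7l2 Lef1 neurons, Slc38a10 in Pde1c Calcr neurons and Slc7a5 in Bnc2 Ebf1 neurons included 1. Differences between sub-clusters were not tested.

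In oligodendrocytes, the SNAT2 gene Slc38a2 was lower and Slc7a15 and Slc1a3 were higher in the aged library. Slc38a2 had 2111 UMIs in 1132 of 1881 aged and 3147 UMIs in 1458 of 2133 young oligodendrocytes, or 516 (495 to 539) and 717 (693 to 743) CPM, and was 1.39-fold lower (1.31 to 1.47). The ratio was 0.720 in the larger oligodendrocyte cluster, with Opalin among its leading genes, and 0.742 in the smaller, led by Anln. Slc7a15 had 296 aged and 211 young UMIs and was 1.51-fold higher (1.26 to 1.80). Its ratio was 1.30 (1.06 to 1.59) in the Opalin cluster, from 219 aged and 190 young UMIs. In the Anln cluster it was 3.51 (2.15 to 5.99), from 77 aged and 21 young UMIs. Slc1a3 had 499 aged and 433 young UMIs, 1.24-fold higher (1.09 to 1.41), with a ratio of 1.27 (1.07 to 1.51) in the Opalin cluster and 1.14 (0.927 to 1.40) in the Anln cluster, where the interval included 1. Of 20 transporter genes with 50 or more UMIs, 1 (Slc7a15) was past 1.5-fold higher (7.07% of 10931 genes were) and 0 past 1.5-fold lower (2.71%). The median log2 ratio was 0.09 over the 20 and 0.10 over all genes, so both lay slightly above 0. The 7 neuron markers summed to 1262 and 969 CPM in aged and young oligodendrocytes, and their part in the higher ratios was not tested.

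Microglia differed in a few genes at low counts. Slc38a6 had 80 aged and 51 young UMIs, 1.57-fold higher (1.09 to 2.28). The lysosomal carrier gene Slc38a9 had 131 aged and 192 young UMIs and was 1.46-fold lower (1.17 to 1.84), and Slc7a8 had 269 aged and 320 young UMIs, 1.19-fold lower (1.01 to 1.40). Slc32a1 had 49 UMIs in 39 aged and 19 UMIs in 17 young microglia, 2.58-fold higher (1.49 to 4.64), while an average droplet without a nucleus would have given 22.6 UMIs over the aged and 25.6 over the young microglia. The 7 neuron markers summed to 1510.4 and 1364 CPM in aged and young microglia, and their part in this ratio was not tested. Gad1 and Gad2 had ratios of 1.19 and 0.948 in the same nuclei. Of 13 transporter genes with 50 or more UMIs, 2 (Slc32a1 and Slc38a6) were past 1.5-fold higher (7.97% of 6973 genes) and 0 past 1.5-fold lower (4.75%), with a median log2 ratio of 0.05 over the 13 and 0.04 over all genes.

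In astrocytes, 13 genes had 50 or more UMIs and 0 were past 1.5-fold in either direction (6.91% of 6006 genes were higher and 6.38% lower). Slc1a2 had 1951 UMIs in 154 aged and 4734 UMIs in 387 young nuclei and was 1.13-fold lower (1.07 to 1.20). Slc1a3 was at 0.938 (0.873 to 1.01), Slc6a11 at 0.936 (0.845 to 1.04), Slc7a10 at 0.930 (0.784 to 1.10) and Slc7a11 at 1.06 (0.923 to 1.22). The median log2 ratio was -0.07 over the 13 and 0.03 over all genes. Neuron markers summed to 1542 and 739.6 CPM in aged and young astrocytes, and their part in these ratios was not tested.

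Oligodendrocyte precursors of the aged library had more Slc38a3, Slc1a2 and Slc1a3, and less Slc1a1. Slc38a3 had 75 UMIs in 59 of 183 aged and 53 UMIs in 45 of 254 young precursors, 1.83-fold higher (1.27 to 2.66). Slc1a2 stood at 476 and 352 CPM in aged and young precursors, 1.35-fold higher (1.17 to 1.56), and Slc1a3 at 206 and 159.9 CPM, 1.29-fold higher (1.03 to 1.60). Slc1a1 had 205 aged and 338 young UMIs and was 1.27-fold lower (1.07 to 1.52), but without the committed precursors described above its ratio was 1.06 (0.868 to 1.29). Without them Slc38a3 stood at 92.3 CPM in aged and 57.3 CPM in young precursors, a ratio of 1.61 (1.12 to 2.34), and Slc1a2 at 480.0 and 402 CPM, a ratio of 1.19 (1.03 to 1.38). Slc1a3 then stood at 208 CPM in aged and 180.5 CPM in young precursors, a ratio of 1.15 (0.925 to 1.44) whose interval included 1. Astrocyte markers summed to 92.5 and 56.4 CPM and oligodendrocyte markers to 483 and 1248 CPM in aged and young precursors, and the part of either in these ratios was not tested. Of 14 genes with 50 or more UMIs, 1 (Slc38a3) was past 1.5-fold higher (7.14% of 6527 genes) and 0 past 1.5-fold lower (6.93%), with a median log2 ratio of 0.18 over the 14 and 0.03 over all genes.

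**Figure D4:**
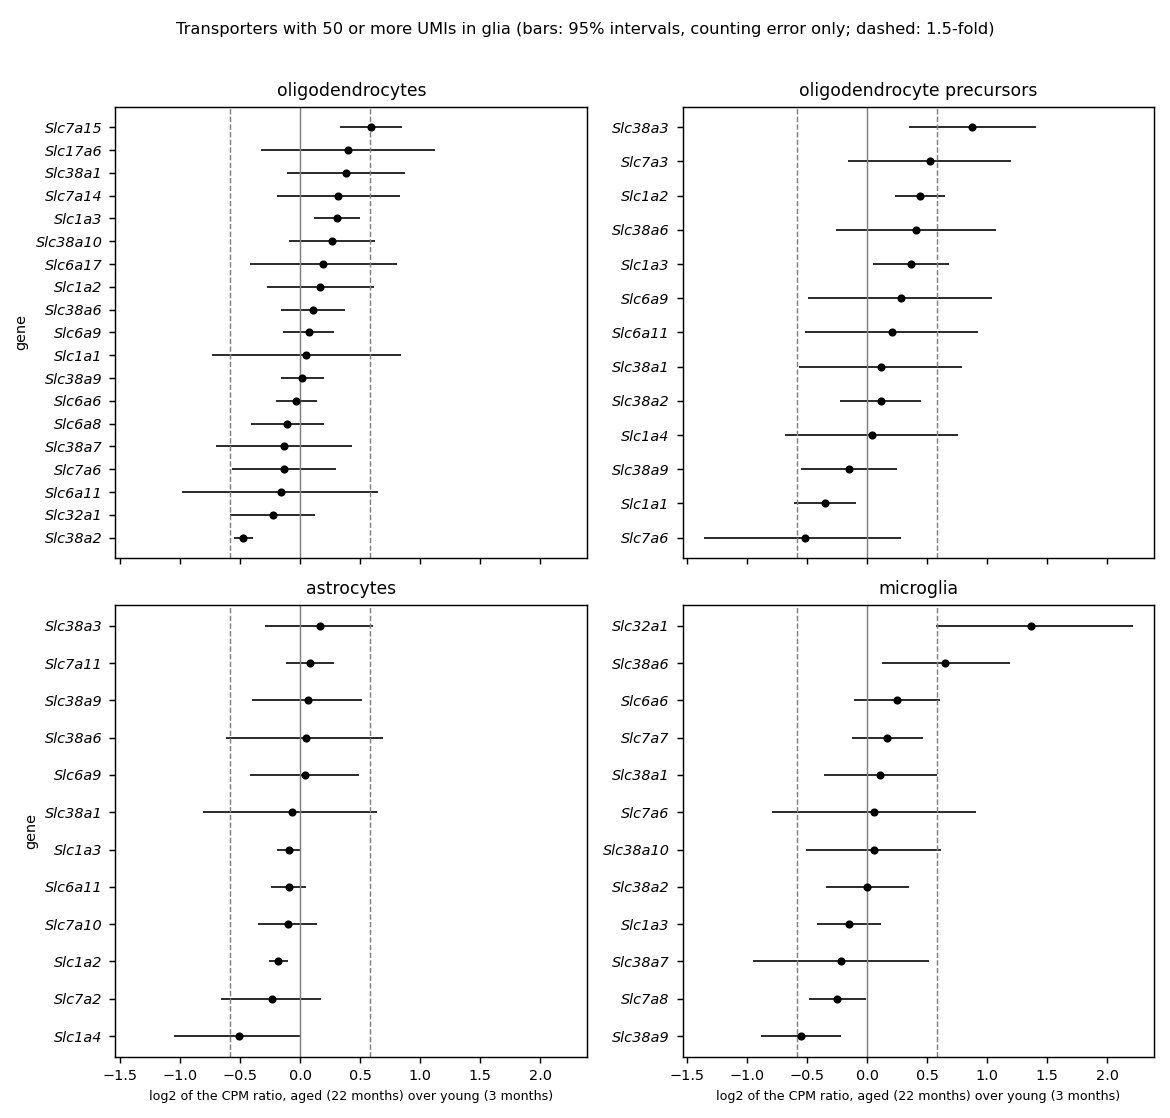
Log2 ratio of CPM, aged over young, for transporter genes with 50 or more UMIs in oligodendrocytes, oligodendrocyte precursors, astrocytes and microglia, with 95% intervals for counting error only; dashed lines mark 1.5-fold. Slc38a2 in oligodendrocytes lies well below 0 with a narrow interval, and the 4 genes past the upper line are Slc7a15, Slc38a3, Slc32a1 and Slc38a6.

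Few genes of the wider pathway differed by 1.5-fold between the ages in neurons. Of all 18024 genes counted there, 3.06% were past 1.5-fold higher and 6.39% lower. Of 10 genes that make or break down glutamate and GABA, all 10 had 50 or more neuronal UMIs, 0 were past 1.5-fold in either direction, and 6 had ratios above 1. The glutamine synthetase gene Glul was the highest of them at 1.38 (1.26 to 1.52), with 1010 aged and 874 young UMIs, beside the glial markers given above, whose part in it was not tested, and the glutaminase gene Gls2 was the lowest at 0.823 (0.760 to 0.892). Among 8 partner chains and other amino acid carriers, 6 were counted and 0 were past 1.5-fold, and Slc3a2, the chain shared by several SLC7 exchangers, had 3017 aged and 3543 young UMIs, a ratio of 1.02 (0.971 to 1.07). The 4 mitochondrial carriers of glutamate and aspartate were also within 1.5-fold. Of 7 other transmitter carriers, 1 was past 1.5-fold higher, the vesicular acetylcholine transporter gene Slc18a3, with 70 aged and 48 young UMIs, a ratio of 1.75 (1.19 to 2.58), while the choline carrier gene Slc5a7 had 603 aged and 835 young UMIs, a ratio of 0.865 (0.778 to 0.962). Slc18a3 was the only 1 of the 7 with a ratio above 1, and their median log2 ratio was -0.20, against 0.02 over all genes in neurons. In astrocytes Glul had 348 aged and 867 young UMIs, a ratio of 0.859 (0.757 to 0.974), and Gad2 was the 1 of 9 synthesis genes past 1.5-fold higher, with 62 aged and 78 young UMIs, a ratio of 1.70 (1.20 to 2.41), where 6.91% of all genes were and the neuron markers summed to 1542 and 739.6 CPM in aged and young nuclei; their part in it was not tested. In oligodendrocytes all 9 synthesis genes counted had ratios above 1, Gad1 and Gad2 among them, with 0 past 1.5-fold, where 64.3% of all genes had ratios above 1 and the neuron markers were higher in the aged library as given above. Of these genes, Got1 had 430 aged and 318 young UMIs, a ratio of 1.45 (1.25 to 1.68). The mitochondrial carrier gene Slc25a22 was past 1.5-fold higher there, 1 of 3 such genes counted, with 83 aged and 53 young UMIs. Its ratio was 1.68 (1.18 to 2.42), and 7.07% of all genes there were past 1.5-fold higher and 2.71% lower. In microglia Slc16a10, a carrier of aromatic amino acids, was past 1.5-fold higher at 1.79 (1.25 to 2.57), with 91 aged and 51 young UMIs. It was the only 1 of 5 partner chains and other carriers counted there to be so, beside 7.97% of all genes. In precursors Got1 was past 1.5-fold higher, with 55 aged and 47 young UMIs, a ratio of 1.51 (1.01 to 2.29). It was the only 1 of 8 synthesis genes counted there to be so, beside 7.14% of all genes.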

How the data were processed

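Single-nucleus RNA was counted in 1 aged and 1 young library, each from 5 pooled mice. The authors deposited unfiltered tables of UMI counts per gene and barcode, made with Cell Ranger 4, per the file headers; the genome build, annotation, strand and use of intronic reads were not given in the sources used. Aged and young tables held 79107368 and 87520038 UMIs. Barcodes with 500 or more genes and at most 5% mitochondrial UMIs were kept (8597 aged, 10437 young), and Scrublet marked 368 and 489 of them as doublets, which were left out. Counts were scaled to 10000 per nucleus and clustered with scanpy 1.11.5 (2000 variable genes without the transporter genes, 30 components, 15 neighbours, Leiden resolution 1) under python 3.11.15 with igraph 0.11.9. Clusters were named from marker lists that hold no transporter gene: a list mean of 2 or more on the log2 scale over the other nuclei with at least 3 markers detected, or a neuron marker mean of 9.5 or more (log2 of CPM + 5). A cluster far shallower than all nuclei, with no marker of its list among its leading genes, was left unnamed. This rule kept the unnamed cluster, with a neuron marker mean of 9.67, out of the neurons. Its median depth was 0.124 of that of all nuclei in the aged library. UMIs were summed per class and library. A CPM has an exact Poisson and a ratio an exact conditional binomial 95% interval (scipy 1.17.1), which cover counting error only; shares have exact binomial intervals. A gene was called past 1.5-fold when its ratio was at least 1.5, or its inverse, with 50 or more UMIs in the class. Genes named between the ages had an interval that left out 1, ranked by the bound nearest to 1, at most 8 each way in neurons and 5 in other large classes; further genes with such intervals and sub-cluster values beyond the vesicular, GABA, glycine and monoamine carriers were added after their values were seen. The ratio and its interval were tested on simulated counts of summed neurons, and the other steps were not. The gene set, marker and pathway lists were chosen with earlier results of these data known, and values of some genes of these families are not reported here.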

Additional observations from a re-analysis of the deposited data

Results flagged for a closer look

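The glutamate carrier gene Slc1a2 went in opposite directions between the ages in different classes, with counting intervals that left out 1 in each. Its ratio, aged over young, was 1.18 in neurons and 1.35 in oligodendrocyte precursors, against 0.882 in astrocytes. The neuronal ratio was 1.03 with nuclei weighted alike, 1.07 with sub-clusters weighted alike and 0.934 without the Tcf7l2 Lef1 sub-cluster, and the precursor ratio was 1.19 without committed precursors. Slc1a1 likewise had a ratio of 1.09 in neurons and 0.785 in oligodendrocyte precursors, but 1.06 in precursors without the committed ones, so that both classes then lay above 1. With 1 library per age, neither difference between classes was tested.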

How the results depend on the processing

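No paired analysis was possible because each age has 1 library and the labels carry no replicate numbers. Counts of transporter genes past 1.5-fold rest on few genes and moved with the settings. In neurons, with 0 higher and 2 lower, a minimum of 20 UMIs gave 1 and 4, a minimum of 100 gave 1 lower, and 4 were lower with doublets kept or nuclei weighted alike. In oligodendrocytes, with 1 higher and 0 lower, 2 were higher at 1000 genes per nucleus and 3 after droplet RNA was subtracted, 0 with doublets kept, without the 50 highest genes in the totals or with nuclei weighted alike, and 1 was lower after subtraction or at 20 UMIs. In microglia, with 2 higher, 1 was higher at 1000 genes, after subtraction or at 100 UMIs, and 5 at 20 UMIs. In astrocytes, with 0 higher, 4 were higher with doublets kept or at 20 UMIs. In precursors, with 1 higher and 0 lower, 4 were higher with doublets kept or at 20 UMIs and 2 with nuclei weighted alike; 1 was lower at 1000 genes, with doublets kept, at Leiden resolution 2 or with nuclei weighted alike, and 3 at 20 UMIs. Lower or higher UMI minimums change which genes count; the cause of the other moves was not tested. Of 277 alternative values for 28 named ratios, 265 stayed within counting error, 10 moved and 2 turned round: Slc1a1 in precursors, 1.06 at resolution 2, where committed precursors separate, and Slc1a2 in neurons, 0.934 without the Tcf7l2 Lef1 sub-cluster. Slc32a1 in microglia after subtraction of droplet RNA is not among the 277, as no ratio could be formed. Its 19 young UMIs there were fewer than the 25.6 that average droplets would have given. Weighting nuclei alike gave 1.05 for Slc17a6 in neurons. Values for single oligodendrocyte clusters and without a neuron sub-cluster were chosen after seeing the data. Depth limits most ratios outside neurons and oligodendrocytes.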

Other observations

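The shallow unnamed cluster of 520 aged and 89 young nuclei, which enters no class, held 112 aged and 33 young UMIs of Slc32a1, or 278 and 380.4 CPM, and 45 aged and 6 young UMIs of Slc17a6, or 112 and 69.2 CPM. In droplets without nuclei Slc32a1 stood at 226 and 238 CPM and Slc17a6 at 61.3 and 63.1 CPM in the aged and young libraries. An average such droplet would make up 31.5% of the UMIs of the aged and 23.1% of those of the young nuclei in this cluster, against 2.62% and 2.59% in neurons.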
